A study of Mus musculus with 11 samples.

Results

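The small heat shock proteins and their co-chaperone BAG3 were followed in thigh muscle (quadriceps) of aged mice. The set held 8 genes of the 53465 in the count table, chosen by symbol: Cryab, Hspb1, Hspb2, Hspb3, Hspb6, Hspb7, Hspb8 and Bag3. Each symbol matched a single Ensembl identifier, and all 8 were among the 14117 genes that passed the filter on low counts. RNA was sequenced from 6 libraries of mice given myriocin, an inhibitor of the first enzyme of sphingolipid synthesis, and from 5 libraries of mice given the solvent DMSO. All mice were of the strain written C57L/6JRj in the labels, all were 18 months old when treatment began, and treatment lasted 10 weeks in both groups. Neither the dose of myriocin nor whether each library is a separate animal is stated in the labels, so p-values measure the spread between these libraries, which may be partly technical.

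Small heat shock proteins are ATP-independent chaperones that share an alpha-crystallin domain. They bind partly unfolded proteins and hold them until ATP-driven chaperones refold them or pass them on for breakdown. In striated muscle they associate with the Z-disc and with desmin and filamin, proteins that are strained at each contraction. BAG3 links HSPB8 to HSP70 and the ubiquitin ligase CHIP and so leads damaged filamin into autophagy, a route known as chaperone-assisted selective autophagy. In humans, mutations of CRYAB and BAG3 are known causes of myofibrillar myopathy, and mutations of HSPB1, HSPB3 and HSPB8 of distal motor neuropathy. Many genes of the family are induced by heat shock factor 1, which binds inverted repeats of the letters GAA and TTC.

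Each library held 22241131 to 23163721 reads counted in genes. The 8 genes took 0.262% to 0.351% of these reads in the myriocin libraries and 0.312% to 0.376% in the DMSO libraries. Of 8 skeletal muscle markers 7 averaged at least 1744 CPM in each group, the fast myosin heavy chain Myh4 standing highest at 71119 CPM with myriocin and 61846 CPM with DMSO (CPM, read counts relative to library size and scaled between libraries). The remaining marker, the troponin gene Tnnc2, stood at 0.992 CPM with myriocin and 1.08 CPM with DMSO. Why its count was so low, and whether its reads were lost in counting, was not tested. Of 6 heart markers 3 passed the filter, and these summed to 11.3 to 47.0 CPM with myriocin and 13.1 to 56.0 CPM with DMSO. Myl4, Tnnt2 and Myh6 were detected at means of 12.2, 5.85 and 3.03 CPM with myriocin and 12.2, 6.72 and 4.10 CPM with DMSO. Of the same list, Myl7 had 0 counts and Nppa and Nppb at most 1 and 2 in a library. The 5 liver markers that passed the filter, of 6 listed, summed to 120 CPM in Myriocin replicate 4. They summed to 112 and 96.1 CPM in DMSO replicates 4 and 5, against at most 26.8 CPM in the other 8 libraries. On the leading pair of principal components, Myriocin replicate 4 and DMSO replicates 2 and 5 lay farthest out. Each fit was repeated without either set of 3 libraries.

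Promoter windows of 6 of the 8 genes were in the RefSeq table for GRCm38.p6; Cryab and Hspb2 were not matched. Hspb6 had 2 windows, at different starts, so that 7 windows of 300 bases were searched, from 250 bases before to 50 after the start. The motif GAANNTTC, which reads the same on both strands, was found in windows of 5 genes: Hspb1, Hspb3, Hspb6, Hspb8 and Bag3. Of all 32851 windows of this length, 7.86% held it. The form GAAGTTTC, singled out after the matches were seen, stood in the windows of 4 genes, Hspb1, Hspb6, Hspb8 and Bag3, against 1.21% of all windows with both strands counted. The mirrored motif TTCNNGAA was in none of the 7 windows and in 8.52% of all. The window of Hspb7 held neither motif. TATAAA, searched on both strands, stood in a window of Hspb3 and in a window of Hspb6, and in 13.6% of all windows. None of these matches overlapped another. These are matches of letters and not sites shown to be bound.

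The Hspb1 promoter is shown because it held the motif at 2 places, from -117 to -110 and from -97 to -90, where -1 is the last base before the start. It is the stretch chr5:135887669-135887918 of GRCm38, plus strand, 5′ to 3′, with both matches of GAANNTTC in capitals.
Hspb1: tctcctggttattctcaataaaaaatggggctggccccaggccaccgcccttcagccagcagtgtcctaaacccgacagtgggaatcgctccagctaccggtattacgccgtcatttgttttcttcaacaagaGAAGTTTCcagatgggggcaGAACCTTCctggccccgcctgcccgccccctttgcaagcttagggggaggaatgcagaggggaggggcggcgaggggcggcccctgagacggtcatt

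The other matches are shown as 30 bases each, from the strand of the gene, 5′ to 3′, with the motif in capitals, so that their flanks can be set beside that of Hspb1. The Hspb6 window is chr7:30553170-30553199 (plus strand), the Hspb8 window chr5:116422844-116422873 (minus strand), the Bag3 window chr7:128523603-128523632 (plus strand) and the Hspb3 window chr13:113663882-113663911 (minus strand). In Hspb8 and Bag3 the motif lay after the start, from base 3 to base 10 and from base 43 to base 50. In Hspb6 and Hspb3 it lay before it, from -120 to -113 and from -224 to -217. For Hspb6 these positions count from the downstream start, which follows the stretch chr7:30553051-30553300. That stretch lies inside the annotated span of Hspb6, which begins at 30552178, so the match is not upstream of the whole gene.
Hspb6: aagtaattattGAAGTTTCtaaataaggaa
Hspb8: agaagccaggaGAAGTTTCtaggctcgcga
Bag3: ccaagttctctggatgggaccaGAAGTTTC
Hspb3: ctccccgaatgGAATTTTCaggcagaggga

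Levels per exon length differed widely within the set. In RPKM (CPM per kilobase of merged exon), Cryab averaged 505 and Hspb6 490 over the 11 libraries. Cryab, also called alpha B-crystallin, lay above Hspb6 in 7 of the 11 libraries, so the order of this pair was not fixed. Hspb8 followed at 269 RPKM, below every library of Hspb6. Hspb1, known as HSP25 in the mouse, averaged 189 RPKM and Hspb7, the cardiovascular small heat shock protein, 181 RPKM. Hspb1 lay above Hspb7 in 5 of 11 libraries, and Hspb8 above Hspb1 in 10. Bag3 stood at 73.6 RPKM, apart from its neighbours in every library. Hspb3 averaged 29.9 RPKM and Hspb2 23.5 RPKM. Hspb3 was higher in all 11 libraries, although the ranges of this pair over the libraries overlapped. Cryab and Hspb2 lie head to head on chromosome 9 and share 252 annotated exon bases on opposite strands, 17% of the exon bases of Cryab and 30.2% of those of Hspb2. Reads in these bases may have been set aside as ambiguous. Of the annotated Cryab transcripts, only Cryab-202 and Cryab-206 start within Hspb2, and gene counts do not show how much these were used. With bases shared with other genes left out of the lengths, Cryab would stand at 609 RPKM and Hspb6 at 537 RPKM. Hspb2 would stand at 33.6 RPKM, above Hspb3.

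**Figure D1:**
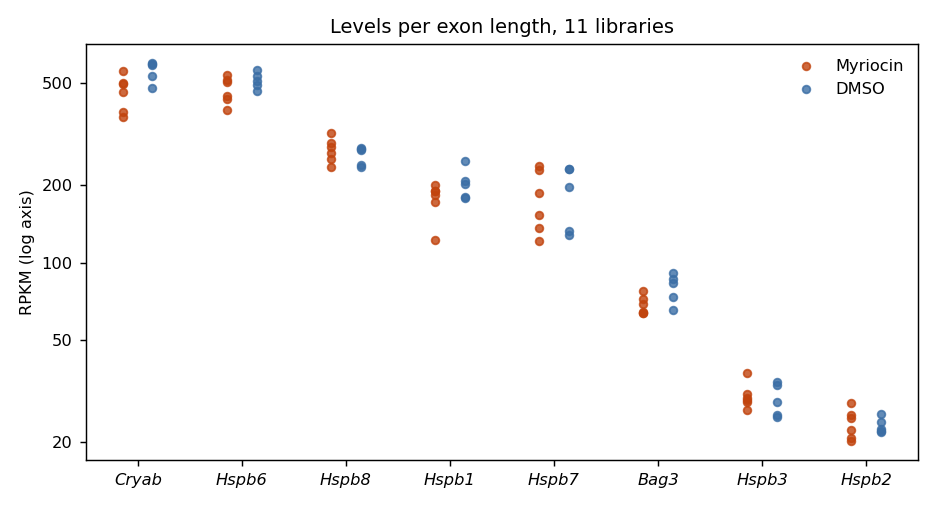
Level of each gene in RPKM (CPM per kilobase of merged exon, log axis) in 6 myriocin libraries (left of each pair) and 5 DMSO libraries (right), 1 point per library. Cryab and Hspb6 lie highest, at means of 505 and 490 RPKM, and Hspb2 lowest at 23.5 RPKM.

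No gene of the set passed the test of myriocin against DMSO over all genes. With edgeR's quasi-likelihood test 0 of 8 had an adjusted p under 0.05, where 0% of the 14117 genes tested did. Cryab and Bag3 had an unadjusted p under 0.05, both lower with myriocin. By this measure 2.34% of all genes were lower and 2.33% higher, or 4.68% in either direction. These 660 genes compare with counts of 493 to 1449 over 23 alternative settings. Leaving out Myriocin replicate 3, 2, 5 or 6 gave 493, 512, 552 and 558 genes, in that order. Adding replicate number to the fit gave 508. The highest counts were 1449 without Myriocin replicate 4, 1167 with no filter and 1140 without the 3 libraries farthest out. Next came 1104 with sample weights in limma-voom and 1022 without the 3 libraries with most liver transcripts. In none of the 8 did every myriocin library lie below, or every one above, all DMSO libraries, as happened in 0.163% and 0.198% of all genes. The log2 fold change (myriocin minus DMSO) was negative for 5 of the 8, against 53.7% of all genes, with a median of -0.09 against -0.01 over all genes. DESeq2 and limma-voom also gave 0 of 8 past the adjusted threshold and 2 of 8 at the unadjusted one. This count of 2 was 1 without Myriocin replicate 1 or 2 or DMSO replicate 1 or 2, and 0 without Myriocin replicate 5 or DMSO replicate 3. It was 3 with no scaling beyond library totals, where Hspb1 also had an unadjusted p under 0.05 (0.0490, edgeR). Since whole muscle was sequenced, fewer cells of a type and less RNA per cell cannot be told apart.

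**Figure D2:**
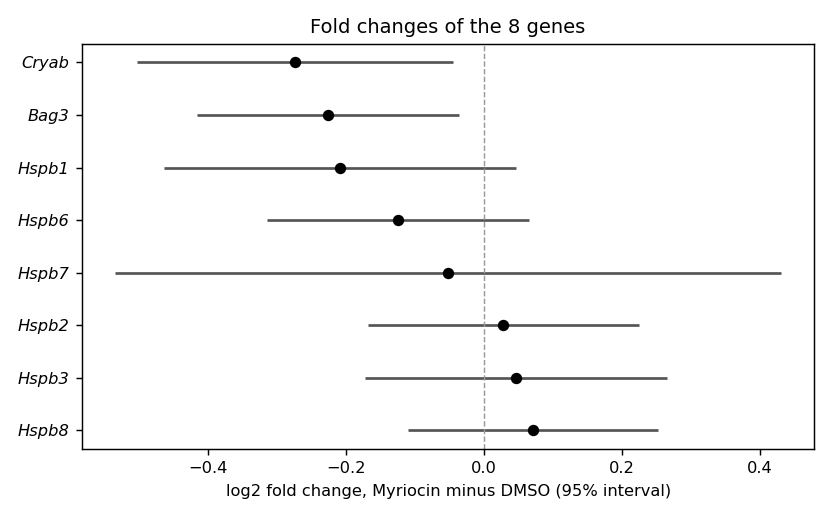
Log2 fold change, myriocin minus DMSO, of each of the 8 genes (points) with its 95% interval from edgeR's quasi-likelihood fit (lines), 6 against 5 libraries. The intervals of Cryab and Bag3 lie below 0 before adjustment for the number of genes tested, and those of the other 6 genes include 0.

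Cryab (ENSMUSG00000032060, GRCm38 chromosome 9, 50751325 to 50756636, plus strand), a chaperone of desmin and other filament proteins, ranged from 546 to 826 CPM in the 6 myriocin libraries with a median of 707 CPM. The DMSO libraries held 785, 885, 869.9, 708 and 879 CPM. Myriocin replicates 1, 2 and 5 lay below every DMSO library and 3 DMSO libraries lay above every myriocin library, while the groups overlapped between 708 and 826 CPM. The means were 682 ± 107 CPM with myriocin (SD, n = 6) and 825 ± 77.3 CPM with DMSO (SD, n = 5), a log2 fold change of -0.27 with an SE of 0.11 and a 95% interval from -0.50 to -0.05. The unadjusted p was 0.0220 and the adjusted p 0.936 (edgeR).

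Bag3 (ENSMUSG00000030847, chromosome 7, 128523616 to 128546981, plus strand), the scaffold that joins HSPB8 to HSP70, ranged from 163 to 198 CPM in the myriocin libraries, median 171 CPM. The DMSO libraries held 234, 167, 221, 189 and 213 CPM. Myriocin replicates 2, 3 and 5 were below every DMSO library, and DMSO replicates 2 and 4 lay among the myriocin libraries. All 6 myriocin libraries were below the DMSO mean. The means were 175 ± 14.4 CPM (SD, n = 6) with myriocin and 205 ± 26.8 CPM (SD, n = 5) with DMSO. The log2 fold change was -0.23 (SE 0.09, 95% interval from -0.42 to -0.04), with an unadjusted p of 0.0229 and an adjusted p of 0.936 (edgeR).

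**Figure D3:**
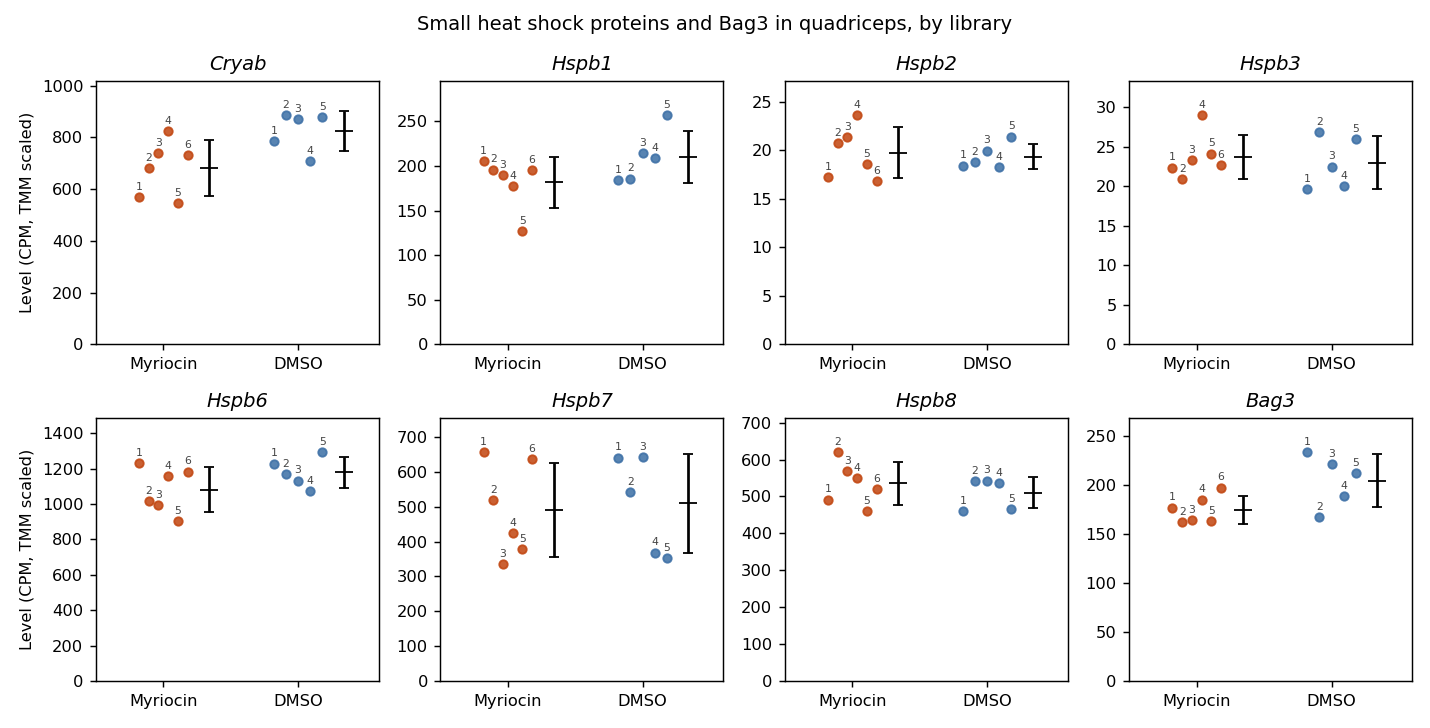
Level of each gene in CPM by library, 6 myriocin libraries to the left and 5 DMSO libraries to the right of each panel, with replicate numbers above the points and the mean and SD as a bar. Cryab and Bag3 have 3 myriocin libraries each below every DMSO library, Hspb1 has a single low myriocin library at 127 CPM, and Hspb7 has libraries between 335 and 425 CPM and between 519 and 657 CPM, with members of both groups in each range.

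Hspb1 (ENSMUSG00000004951, chromosome 5, 135887919 to 135889563, plus strand), which caps actin filaments and is phosphorylated by the kinase MK2, ranged from 127 to 206 CPM with myriocin, median 193 CPM. It stood at 184, 186, 215, 209 and 257 CPM in the DMSO libraries. Myriocin replicate 5 was the lowest of all 11 libraries and DMSO replicate 5 the highest, and the other 9 lay between 177 and 215 CPM. The log2 fold change was -0.21 (SE 0.12, 95% interval from -0.46 to 0.05). Without Myriocin replicate 5 it was -0.12, without DMSO replicate 5 it was -0.13, and without the 3 libraries with most liver transcripts -0.09.

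Hspb6 (ENSMUSG00000036854, chromosome 7, 30552178 to 30555443, plus strand), known as HSP20 and also abundant in smooth muscle, ranged from 902 to 1230.1 CPM with myriocin, median 1089 CPM. In the DMSO libraries it stood at 1229, 1169, 1134, 1072 and 1295 CPM. The groups overlapped between 1072 and 1230.1 CPM, with 3 myriocin libraries below every DMSO library and 1 DMSO library above every myriocin library. The log2 fold change was -0.12 (SE 0.09, 95% interval from -0.31 to 0.06). Its annotated exons share 202 bases with other genes, 8.79% of their length.

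Hspb8 (ENSMUSG00000041548, chromosome 5, 116408491 to 116422864, minus strand), the client-binding partner of BAG3, was among the genes with a positive value. It ranged from 460.1 to 620.5 CPM with myriocin, median 536 CPM, and stood at 461, 541, 543, 537 and 467 CPM with DMSO. Myriocin replicates 2, 3 and 4 were above every DMSO library, while Myriocin replicate 5 was the lowest library of all. The log2 fold change was 0.07 (SE 0.08, 95% interval from -0.11 to 0.25).

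Hspb2 and Hspb3, which form a complex with each other and are largely confined to striated muscle, were the least abundant. Hspb2 (ENSMUSG00000038086, chromosome 9, 50751078 to 50752354, minus strand), which binds the kinase DMPK, ranged from 16.9 to 23.6 CPM with myriocin, median 19.7 CPM, and stood at 18.4, 18.8, 19.97, 18.3 and 21.4 CPM with DMSO. The DMSO libraries all lay within the range of the myriocin libraries. Its log2 fold change was 0.03 with a 95% interval from -0.17 to 0.22, and the sign turned with the scaling or the libraries used. Hspb3 (ENSMUSG00000051456, chromosome 13, 113662896 to 113663676, minus strand) ranged from 20.9 to 28.98 CPM with myriocin, median 23.0 CPM, and stood at 19.6, 26.8, 22.5, 19.99 and 26.0 CPM with DMSO. Its log2 fold change was 0.05 with a 95% interval from -0.17 to 0.27, and its sign turned with the libraries used.

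Hspb7 (ENSMUSG00000006221, chromosome 4, 141420779 to 141425311, plus strand), which binds filamin C, varied most between libraries of a group. It ranged from 335 to 657 CPM with myriocin, median 472 CPM, and stood at 642, 543, 643, 368 and 354 CPM with DMSO. Both groups held high and low libraries. The SD of its log2 level within groups was 0.41, larger than in 96.8% of the 500 genes closest to it in abundance, whose median was 0.14. The SD of Hspb8 and of Hspb6 was 0.14 and 0.15, larger than in 46.2% and 51.8% of the genes close to each. The log2 fold change of Hspb7 was -0.05, and its 95% interval from -0.54 to 0.43 was the widest of the set. Its sign turned without Myriocin replicate 3 or 5 or DMSO replicate 1 or 3.

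The ratio of 2 transcripts within a library needs no scaling between libraries, and 2 such ratios are given. The fitted levels of Cryab and Bag3 were known when the ratios were chosen, so the ratios restate those differences within libraries and are a description, with no test. Cryab and Hspb2, the head-to-head neighbours, gave 33.1, 32.8, 34.7, 35.0, 29.3 and 43.4 Cryab reads per Hspb2 read in Myriocin replicates 1 to 6. The DMSO libraries gave 42.7, 47.2, 43.6, 38.7 and 41.0. Of the 6 myriocin libraries 5 lay below every DMSO library, and Myriocin replicate 6 lay among them. The mean log2 ratio was 5.11 ± 0.19 with myriocin (SD, n = 6) and 5.41 ± 0.11 with DMSO (SD, n = 5), a difference of -0.30.

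That difference kept its sign in all 14 alternatives, between -0.37 and -0.26. Because reads overlapping both genes may have been set aside, and the strand setting of the counting is not stated, the ratio rests on reads outside the shared exon bases or on an unknown share of them.

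**Figure D4:**
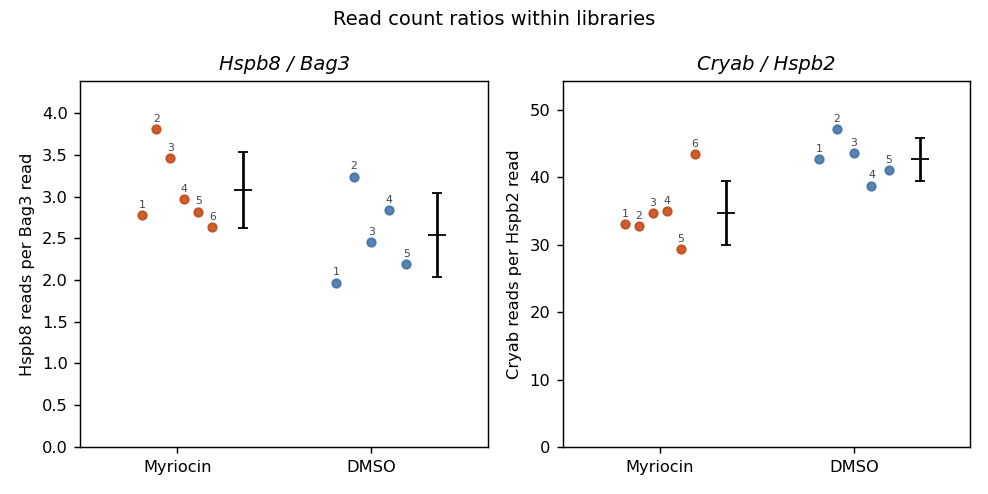
Read count ratios within each library, Hspb8 over Bag3 (left panel) and Cryab over Hspb2 (right panel), for 6 myriocin and 5 DMSO libraries, with replicate numbers and the mean and SD as a bar. For Cryab over Hspb2, 5 myriocin libraries lie between 29.3 and 35.0, below the lowest DMSO library at 38.7.

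Hspb8 and Bag3, the partners of a single complex, gave between 2.63 and 3.81 Hspb8 reads per Bag3 read in the myriocin libraries. The DMSO libraries gave 1.97, 3.24, 2.45, 2.84 and 2.20. All 6 myriocin libraries were above the DMSO mean and 2 above every DMSO library. The mean log2 ratio was 1.61 ± 0.21 with myriocin (SD, n = 6) and 1.32 ± 0.29 with DMSO (SD, n = 5). The difference was 0.29, or 0.38 without DMSO replicate 2.

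The 8 genes did not vary as a block over the libraries. Of the 28 pairs, 18 had a positive Pearson correlation of log2 CPM over the 11 libraries, the median was 0.14, and 0 had an adjusted permutation p under 0.05 (2-sided, smallest adjusted p 0.386). Hspb1 and Hspb6 gave the highest value, r = 0.70 and Spearman's rho = 0.35 (permutation p = 0.0156 and 0.299; adjusted 0.386 and 0.599). Without the 2 libraries farthest out in Hspb1 it was -0.11, so this relation rested on those libraries. Hspb6 and Bag3 gave r = 0.66 and rho = 0.63 (permutation p = 0.0276 and 0.0430; adjusted 0.386 and 0.599), and r was 0.50 without the 2 libraries farthest out in Hspb6. Cryab and its neighbour Hspb2 gave r = 0.45 (permutation p = 0.168), or 0.63 after the group means were taken out. Hspb8 and Bag3 gave r = -0.44 (permutation p = 0.175), and Hspb2 and Hspb7 the lowest value, -0.52 (permutation p = 0.101).

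The genes whose levels followed each member most closely were ranked by Pearson r over the same 11 libraries among 11732 genes. These values describe the highest of many and carry no test. Hspb1 was followed most closely by Jun (r = 0.91), an immediate early transcription factor, then by Saraf (0.89) and Rit1 (0.89). Bag3 was followed by Fbxo44 (0.92), an F-box protein, Hadha (0.91), an enzyme of mitochondrial fatty acid oxidation, and Rbmxl1 (0.89). Hspb2 was followed by the splicing factor Sf3a3 (0.95), Rbx1 (0.92) and Spag7 (0.91). Hspb3 was followed by the adenylate kinase Ak6 (0.94), Rpl36a (0.92) and Gtf2a2 (0.92). Hspb6 was followed by Mxra8 (0.91), a cell surface protein, Decr2 (0.87) and Kcnk2 (0.86). Cryab was followed by Ppil3 (0.88), a peptidyl-prolyl isomerase, Dnajc17 (0.88), a protein with a J domain, and Hoxb4 (0.86). Hspb7 was followed by Armc9 (0.89), by Rab15 (0.88) and by Hspa2 (0.88), a chaperone of the HSP70 family. Hspb8 was followed by Rrad (0.86), a small GTPase of muscle, Cox16 (0.85) and Homer3 (0.84).

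Genes that work with the set were described by lists, each read beside all genes tested, whose median log2 fold change was -0.01. The lists were chosen with earlier results of these data known, so their counts are a description, with no test. Chaperones known as targets of heat shock factor 1 were negative in 15 of 17, with a median of -0.10. Over all genes tested 53.7% were negative. Of the 17, 0 passed the adjusted threshold and 4 were lower at an unadjusted p under 0.05, where 2.34% of all genes were: Hsph1, a nucleotide exchange factor of HSP70, the HSP90 genes Hsp90aa1 and Hsp90ab1, and the inducible HSP70 gene Hspa1a. Hsph1 stood at 90.9 ± 10.7 CPM with myriocin (SD, n = 6) and 113 ± 3.28 CPM with DMSO (SD, n = 5; log2 fold change -0.32), and Hsp90aa1 at 55.5 ± 6.53 and 64.4 ± 7.46 CPM (-0.22), in the same order. Hsp90ab1 (-0.16) and Hspa1a (-0.55, at 2.79 and 4.10 CPM with myriocin and DMSO) were named after their values were seen. Among the factors and their regulators, Hsf2 had a log2 fold change of 0.17 and the inhibitor Hsbp1 of -0.05. Hsf1 and Hsf4, named after their values were seen, stood at -0.01 and -0.02, and 0 of 4 tested genes of that list reached an unadjusted p under 0.05.

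Partners of chaperone-assisted selective autophagy were negative in 10 of 16 and their median was -0.01. None of the 16 reached an unadjusted p under 0.05. The smallest p belonged to the deacetylase Hdac6, at 9.34 ± 0.717 CPM with myriocin and 8.46 ± 0.273 CPM with DMSO (SD, n = 6 and 5; log2 fold change 0.14), and to Vps16, a subunit of vesicle tethering complexes, at 16.5 ± 1.25 and 18.0 ± 0.942 CPM in the same order (-0.12). All 5 other BAG family genes were negative with a median of -0.06. The smallest p belonged to Bag4 (-0.28) and Bag6 (-0.06), and 0 reached an unadjusted p under 0.05. Of 4 other genes listed with the family, only Hspb11 passed the filter, at 1.67 CPM with myriocin and 1.98 CPM with DMSO. Hspb11 was listed by its symbol, and whether it has the alpha-crystallin domain was not examined. Cryaa, the lens partner of Cryab, had 0 counts in all libraries, and Hspb9 and Odf1 had at most 3 counts in a library.

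Z-disc and filament clients had values of both signs. Of 12 genes 8 were negative, the median was -0.08 and 0 passed the adjusted threshold. The giant spring protein Ttn stood at 10829 ± 1203 CPM with myriocin and 9026 ± 850.3 CPM with DMSO (SD, n = 6 and 5; log2 fold change 0.26, unadjusted p = 0.0165 in edgeR). The actin crosslinker Actn2 of the Z-disc stood at 898 ± 139 and 1142 ± 216 CPM in the same order (-0.35, unadjusted p = 0.0218 in edgeR). Among 6 kinases known to act on these chaperones or to bind them, 3 were negative, the median was -0.00476 and 0 reached an unadjusted p under 0.05. Mapkapk2, the kinase MK2, had a log2 fold change of -0.09 and the protein kinase D gene Prkd1 -0.21.

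**Figure D5:**
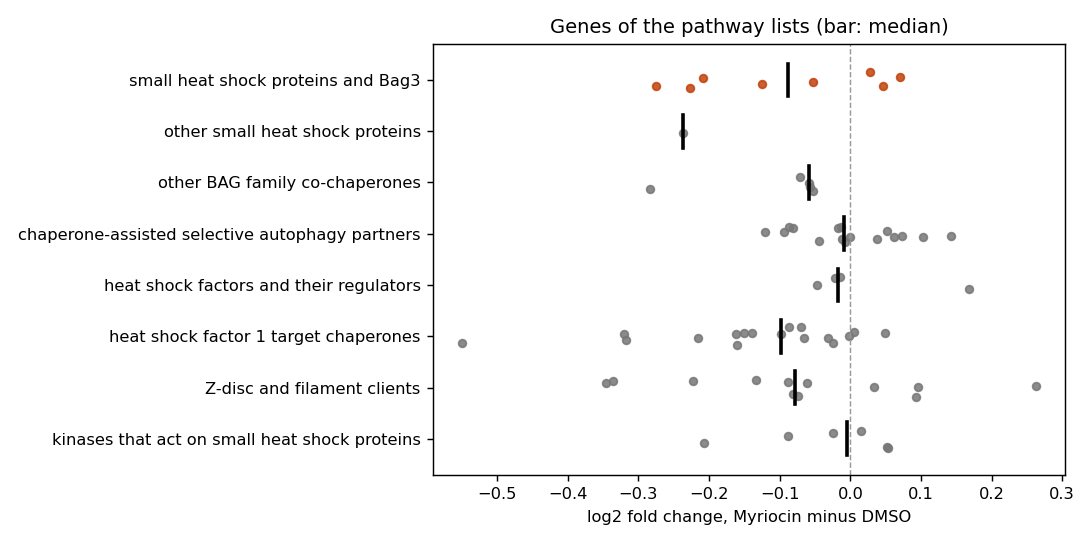
Log2 fold change, myriocin minus DMSO, of each tested gene (points) in the small heat shock protein set and in 7 lists of related genes, with the median of each list as a black bar. The medians lie between -0.24 (a single gene, Hspb11, listed by its symbol) and -0.00476, and no point passed the adjusted threshold.

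Markers of fibre types and of other cells were measured in the same libraries. The 8 slow fibre markers summed to 73.3 to 733 CPM in the myriocin libraries and 93.0 to 692 CPM in the DMSO libraries, a wide spread that did not separate the groups. The fast 2A fibre markers Myh2 and Ldhb were both negative, with sums of 416 to 2126 CPM with myriocin and 1252 to 2302 CPM with DMSO, while 7 of 8 markers of fast glycolytic fibres were positive, with sums of 169477 to 192430.5 CPM and 149555 to 174454 CPM in the same order. Smooth muscle and pericyte markers, 5 of 7 negative, summed to 328 to 445 CPM and 345 to 472 CPM in the same order, and Tagln of that list had at most 11 counts in a library. All 8 endothelial markers were negative, with sums of 245 to 317 CPM with myriocin and 289 to 340.2 CPM with DMSO. Of 6 adipocyte markers 4 were negative, while the most abundant, Car3, was positive, averaging 801 CPM with myriocin and 688 CPM with DMSO. Their sums had medians of 1099.9 CPM with myriocin and 872 CPM with DMSO, with DMSO replicate 2 highest at 2380.3 CPM. The same library held 581 CPM of the 3 neutrophil markers that passed the filter, of 6 listed. Their sums were 0.353 to 82.1 CPM in the myriocin libraries and at most 26.3 CPM in the other DMSO libraries. The medians of these sums were 1.84 CPM with myriocin and 1.30 CPM with DMSO. Retnlg, Mpo and Camp of that list did not pass the filter and are not in the sums. Their highest counts in a library were 461, 573 and 1526. All 5 erythroid markers were positive, while their sums had medians of 61.0 CPM with myriocin and 109.9 CPM with DMSO. Myriocin replicates 4 and 5 were highest at 243 and 202 CPM. Immediate early genes were negative in 7 of 8, with sums of 121 to 194 CPM and 139 to 247 CPM in the same order. Over the libraries, 24 correlations of a gene of the set with the summed slow fibre, fast 2A or smooth muscle markers were added after seeing the data. None gave an adjusted permutation p under 0.05 (smallest 0.689), and the other marker lists were not correlated with the set. Correlations over 11 libraries cannot settle the part of these markers in the levels of the 8 genes, which was not tested.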

How the data were processed

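Gene-level read counts of 11 libraries were deposited by the authors without normalization. STAR 2.5.2b, HTSeq 0.6.0 and the build GRCm38 are named in the submitters' processing notes. No label states the strand setting, annotation release or read filters. HTSeq summary lines, 24.8% to 28.2% of a library, stayed out of library sizes and tests. Columns were matched to samples by name, with 0 left over. GENCODE M21 gave symbols, positions and merged exon lengths, and RefSeq the promoters.

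Genes passing filterByExpr (minimum count 10, minimum total 15) entered a robust quasi-likelihood fit of edgeR 4.0.16 (R 4.3.3), TMM-scaled, with treatment as the single factor. Benjamini-Hochberg adjustment covered all 14117 genes. SE is the absolute log2 fold change over the square root of F. CPM carries the TMM scaling, and sums over a list cover the genes of it that passed the filter. Log2 CPM for correlations used a prior count of 2, and permutation tests of correlations 100000 draws. Depth makes 1 read worth 0.0432 to 0.0450 CPM, and intervals cover counting error and library spread only. Alternatives used DESeq2 1.42.0 and limma 3.58.1. No pair of libraries of a group was a copy (chi-square per degree of freedom 8.91 to 48.9). The test was checked on simulated data. Planned exact permutation tests of 2 ratios were computed but are not given, since the ratios were chosen with Cryab and Bag3 values known.

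The 8 genes and the lists were chosen with earlier results of these data known. Named genes were the 8, the 2 with the smallest p in each related list and at most 2 of a marker list. Outside this rule, the 6 heart markers, the neutrophil markers left out by the filter and some other genes of the lists were named too. The 3 most like each of the 8 (mean of at least 1 CPM) were named as well. Same-numbered libraries were not paired: their deviations from the group means correlated at -0.132 to 0.0866.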

Additional observations from a re-analysis of the deposited data

Results flagged for a closer look

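Hspb1 in Myriocin replicate 5, at 127 CPM, lay far below the other 5 myriocin libraries, which held 177 to 206 CPM. Its gap to the nearest of them was 0.639 of the range of the group, above Dixon's critical value of 0.625 for 6 samples. It was the only flag among 20 groups examined (the 8 genes and 2 ratios in each treatment), where chance flags about 1 in 20. The same library was the lowest of the 11 for Cryab, Hspb6 and Hspb8 as well.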

How the results depend on the processing

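All 8 genes missed the adjusted threshold in each of 23 alternatives. Cryab (-0.37 to -0.21), Bag3 (-0.31 to -0.17), Hspb1 (-0.25 to -0.09) and Hspb6 (-0.17 to -0.08) stayed negative and Hspb8 (0.02 to 0.11) positive. Leaving out single libraries, the log2 fold change of Hspb2 ran from -0.031 to 0.069, of Hspb3 from -0.020 to 0.11 and of Hspb7 from -0.16 to 0.045. Hspb2 was -0.0087 without scaling. Without the 3 libraries with most liver transcripts Hspb2 was -0.0038, Hspb3 -0.017 and Hspb7 -0.27. The count of genes past the threshold was 0 in edgeR and 6 with DESeq2, none of them of this set. Why these values moved was not tested.

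The log2 ratio of Cryab to Hspb2 differed by -0.37 with the replicate number as a block. It differed by -0.37 without the 3 libraries with most liver transcripts and by -0.28 without the 3 farthest out. Leaving out single libraries it ran from -0.37 to -0.26, and Hspb8 to Bag3 from 0.20 to 0.38. The main fit called 0 of the 8 genes, so the block had no call to end, and 0 of 10 libraries correlated best with their own number. With 5 and 6 libraries the median half-width of the 95% interval over all genes tested was 0.25 log2 units, close to the values of Cryab and Bag3.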
